A study of Caenorhabditis elegans with 2 samples.

Results

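The nuclear pore and nuclear transport genes of Caenorhabditis elegans were examined for binding of LIN-13, a chromatin protein with zinc fingers that belongs to the class B synMuv repressors of transcription. The members were all protein-coding genes of the WBcel235 annotation whose name starts with ran-, ima-, imb-, xpo- or npp-, 40 of 19973. They comprise 14 transport factors (ran-, ima-, imb- and xpo-) and 26 pore proteins (npp-). The assay was chromatin immunoprecipitation with sequencing (ChIP-seq) on whole first-stage (L1) larvae of strain OP49. This strain carries the unc119(ed3) mutation and the integrated transgene wgIs49, which holds lin-13 tagged with TY1, EGFP and FLAG together with an unc119 copy. The labels name 1 group of 2 biological replicates, pooled males and females, fragments of 150 to 350 bp, and lin-13 as the antibody target, and the signal is a mixture of all tissues of the larva. There is no second condition, so no test between samples was possible, and the control libraries were not analysed here.

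The nuclear pore is a ring-shaped assembly of nucleoporins that spans the nuclear envelope. Scaffold nucleoporins build its outer and inner rings, and nucleoporins rich in phenylalanine-glycine repeats fill its channel. Importins and exportins carry proteins and RNA through it, and the small GTPase Ran, loaded with GTP inside the nucleus and made to hydrolyse it outside, sets the direction. In animals whose envelope opens at each division, several of these proteins also act at kinetochores or on the spindle.

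A call is a position where the authors' peak caller scored the immunoprecipitate against the control. A call's signal is that score, in units that are not known here. Signals were therefore ranked within each list, with rank 1 the strongest. The reproducible set, selected by the authors by irreproducible discovery rate (IDR), held 2333 peaks with signals from 48.2 to 871, which are also the 2333 strongest of the pooled list. That list and each replicate's list held 30000 calls, most of them background, of which 3468, 2475 (replicate 1) and 5192 (replicate 2) had a q-value under 0.05. Sequencing depth is not known. A gene was counted as having a peak when any of its annotated 5' ends had a reproducible summit within 500 bp, and a negative distance means upstream. Positions are in the ce11 build, which is WBcel235.

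Of the 40 members, 20 had a peak (50%, 95% exact binomial interval 33.8 to 66.2), beside 8.62% of all protein-coding genes. Transport factors had a peak at 10 of 14 genes (71.4%, interval 41.9 to 91.6) and pore proteins at 10 of 26 (38.5%, interval 20.2 to 59.4). The difference of 33.0 percentage points in favour of transport factors (Newcombe interval 0.70 to 56.2) depended on the rule for counting. It turned to -16.5 points when the summit had to lie within 250 bp and to -9.34 points when each summit counted only for the gene with the nearest 5' end, and it was 1.65 points with the stronger part of the reproducible set. All intervals treat genes as independent units and cover counting error only. With the first 5' end only the counts were the same (beside 8.22% of all genes), and with any overlap of peak interval and window they were 10 and 12 (beside 9.41%). All 20 peaks lay upstream of the member's 5' end, from 70 to 471 bp away, beside 92.9% of the peaks of all 1721 genes that had one. Of the 20 summits 18 lay between genes, beside 80.5% of all 1346 reproducible summits within 500 bp of a 5' end. None of the 2333 reproducible summits lay inside any of the 40 genes, which together span 213.7 kb. The share of all genes with a summit inside was not computed, so this is not shown to be particular to the members. By chromosome, peaks were found at 7 of 13 members on I, 5 of 8 on II, 2 of 8 on III, 4 of 8 on IV and 2 of 3 on V, beside 12.7%, 8.44%, 13.7%, 8.50% and 5.55% of all genes there.

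**Figure D1:**
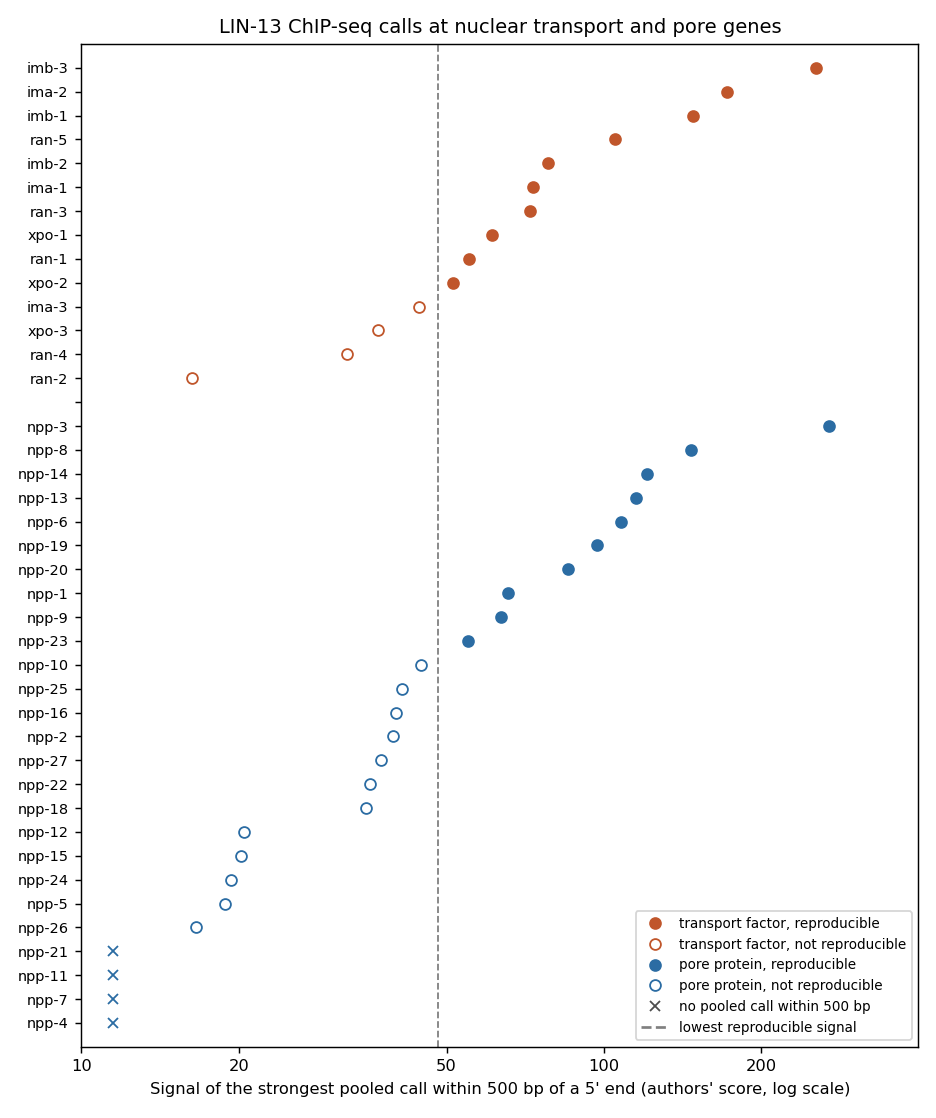
Signal of the strongest pooled call within 500 bp of a 5' end (log scale, the authors' score) for the 14 transport factors, above, and the 26 pore proteins, below. Filled points belong to the reproducible set, whose lowest signal of 48.2 is the dashed line, open points do not, and crosses mark the 4 pore genes with no pooled call in reach. The strongest in each class are imb-3 with 255 and npp-3 with 270.

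The sequences around 7 of the summits are shown as examples of windows with the words examined further on, for 3 transport factors and 4 pore proteins. Most of the member windows not shown carry such words too. Each is the window from 100 bp before to 100 bp after the summit, 5' to 3' on the strand of the member gene, taken from the RefSeq copy of WBcel235. Capitals mark a CHR word (TTTGAA or TTCGAA), an E2F-like word or a GC-box (CCGCCC) on either strand, so that TTCAAA is TTTGAA read on the other strand. The windows are chrII:8325217-8325417 for ran-3 (minus strand), chrV:11239316-11239516 for ima-1 (plus strand), chrII:14365284-14365484 for imb-2 (plus strand), chrII:11874758-11874958 for npp-3 (minus strand), chrIV:1595897-1596097 for npp-8 (minus strand), chrIII:3404559-3404759 for npp-9 (minus strand) and chrIV:8869732-8869932 for npp-23 (minus strand).
ran-3: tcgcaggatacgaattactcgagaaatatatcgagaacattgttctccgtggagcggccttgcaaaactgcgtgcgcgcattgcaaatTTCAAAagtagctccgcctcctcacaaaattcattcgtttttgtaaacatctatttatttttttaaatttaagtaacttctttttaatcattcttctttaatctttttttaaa
ima-1: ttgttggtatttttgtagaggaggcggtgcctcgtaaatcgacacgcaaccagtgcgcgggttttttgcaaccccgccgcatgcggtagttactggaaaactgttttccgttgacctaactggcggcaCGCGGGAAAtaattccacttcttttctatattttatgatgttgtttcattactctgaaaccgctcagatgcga
imb-2: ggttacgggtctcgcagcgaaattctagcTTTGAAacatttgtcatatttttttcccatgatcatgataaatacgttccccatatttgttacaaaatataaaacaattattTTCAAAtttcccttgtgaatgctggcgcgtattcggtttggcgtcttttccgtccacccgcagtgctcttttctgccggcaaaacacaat
npp-3: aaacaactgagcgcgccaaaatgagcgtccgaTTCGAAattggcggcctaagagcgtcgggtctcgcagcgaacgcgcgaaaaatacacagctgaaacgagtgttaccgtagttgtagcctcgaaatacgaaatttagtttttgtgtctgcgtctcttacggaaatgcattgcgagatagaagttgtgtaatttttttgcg
npp-8: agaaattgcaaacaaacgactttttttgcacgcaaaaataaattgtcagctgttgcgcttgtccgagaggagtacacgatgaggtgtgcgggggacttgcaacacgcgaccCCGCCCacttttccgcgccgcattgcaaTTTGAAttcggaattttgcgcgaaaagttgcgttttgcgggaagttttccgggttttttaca
npp-9: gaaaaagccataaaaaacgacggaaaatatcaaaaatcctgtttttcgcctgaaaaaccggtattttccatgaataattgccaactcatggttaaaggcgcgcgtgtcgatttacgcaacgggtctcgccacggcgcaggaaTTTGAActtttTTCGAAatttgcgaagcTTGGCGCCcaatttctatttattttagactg
npp-23: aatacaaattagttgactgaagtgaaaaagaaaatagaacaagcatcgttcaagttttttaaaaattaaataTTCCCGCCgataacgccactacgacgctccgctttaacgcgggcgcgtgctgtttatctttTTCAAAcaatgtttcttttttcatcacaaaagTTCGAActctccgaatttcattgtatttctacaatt

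The Ran cycle had a peak at 3 of its 5 genes, of middle or low strength. The peak of ran-5, which encodes a protein with a Ran-binding domain, had a signal of 37.2 in replicate 1 and 68.0 in replicate 2 (ranks 1204 and 585) and 105 in the reproducible set (rank 768; II, 6047704 to 6048027). Its summit was 243 bp upstream of ran-5 and at base 1 past the 5' end of the divergent gene R12C12.6, in an exon. For ran-3, the RCC1 homolog that loads Ran with GTP, signals were 32.0 and 37.6 in replicates 1 and 2 (ranks 1511 and 1487) and 72.1 in the reproducible set (rank 1345; II, 8325155 to 8325478). The replicates thus ranked ran-3 alike, and ran-5 higher in replicate 2. The gene of Ran itself, ran-1, had the most uneven ranks of the 19 member peaks called in both replicates, with 16.4 in replicate 1 (rank 5750, q-value 0.337) and 40.2 in replicate 2 (rank 1342), and 55.1 in the reproducible set (rank 1966; III, 10748037 to 10748360). It was also the peak farthest from its gene, at -471 bp. Neither ran-2, the Ran GTPase-activating protein, nor ran-4, the homolog of the Ran importer NTF2, had a peak. Their strongest pooled calls within 500 bp had signals of 16.3 and 32.3 (ranks 20741 and 4231), under the reproducible range.

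Importin alpha, the adaptor that recognises the classical nuclear localisation signal, had a peak at 2 of 3 genes. The ima-2 peak was strong and even, with 84 in each replicate (ranks 278 and 384) and 172 in the reproducible set (rank 315; I, 6314757 to 6315080), 314 bp upstream. The ima-1 peak was weaker, with 34 and 40.4 in replicates 1 and 2 (ranks 1372 and 1331) and 73.3 in the reproducible set (rank 1316; V, 11239254 to 11239577), 259 bp upstream. The third gene, ima-3, lay just under the reproducible range. Its pooled call, 360 bp upstream, had a signal of 44.3 (rank 2617), from 25.4 in replicate 1 (rank 2177) and 13.5 in replicate 2 (rank 6783), so that it stood among the 2333 strongest calls of replicate 1 but not of replicate 2.

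Carriers of the importin beta family, importins and exportins together, had a peak at 5 of 6 genes. The imb-3 peak was the second strongest of all members and the narrowest, 92 bp (I, 315224 to 315315), with 123 and 131 in replicates 1 and 2 (ranks 112 and 147) and 255 in the reproducible set (rank 125), 285 bp upstream. For imb-1, the importin beta that pairs with importin alpha, signals were 78.6 and 69.3 (ranks 317 and 566) and 148 in the reproducible set (rank 409; I, 4926425 to 4926748), at -101 bp the closest among transport factors. For imb-2, the transportin homolog, they were 39.0 and 38.4 (ranks 1120 and 1430) and 78.1 (rank 1202; II, 14365222 to 14365545), 317 bp upstream. The 3 imb- peaks thus ranked above the 2 xpo- peaks, though the summits of imb-1, xpo-1 and xpo-2 lay nearer to another gene. Exportin 1, the main carrier of proteins with a leucine-rich export signal, is encoded by xpo-1 and had 31.2 and 36.0 in replicates 1 and 2 (ranks 1591 and 1580) and 61.0 in the reproducible set (rank 1735; V, 7804444 to 7804767), 458 bp upstream. The peak of xpo-2, the exportin that returns importin alpha to the cytoplasm, was the weakest of all members, 51.4 (rank 2144; I, 323528 to 323851). Replicate 1 had a call of 32.0 (rank 1514) within 100 bp of that summit, and replicate 2 had none there, its only call in reach having a signal of 17.6 (rank 4225) at -495 bp. The tRNA exportin xpo-3 had no peak and a pooled call of 37.0 (rank 3396) at -183 bp.

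Among pore proteins, each of the 4 inner ring genes had a peak, npp-3, npp-8, npp-13 and npp-19. The grouping of nucleoporins by their place in the pore follows their vertebrate homologs and was made after the values were seen. The npp-3 peak, upstream of the Nup205 homolog, was the strongest of all members, with 131 and 130 in replicates 1 and 2 (ranks 94 and 151) and 270 in the reproducible set (rank 107; II, 11874786 to 11874903), and at 70 bp upstream also the closest. Signals for npp-8, the Nup155 homolog, were 72.3 and 66.9 (ranks 376 and 604) and 147 in the reproducible set (rank 413; IV, 1595835 to 1596158), 173 bp upstream. For npp-13, the Nup93 homolog, they were 65.3 and 52.6 (ranks 460 and 914) and 115 (rank 650; I, 2096955 to 2097278), 229 bp upstream. The fourth, npp-19, the Nup35 homolog, had 50.4 and 51.6 (ranks 717 and 936) and 97.1 in the reproducible set (rank 863; II, 10798495 to 10798818), 178 bp upstream. All 4 of these peaks were among the 2333 strongest calls of both replicates.

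In the Y complex, the scaffold of the outer rings, 3 of 8 genes had a peak, npp-6, npp-20 and npp-23. The npp-6 peak, for the Nup160 homolog, had 56.8 and 58.7 in replicates 1 and 2 (ranks 575 and 763) and 108 in the reproducible set (rank 731; I, 5176259 to 5176582), and its summit lay 408 bp upstream of npp-6 and 233 bp inside the divergent gene spd-5, in an intron. For npp-20, the SEC13 homolog, signals were 46.6 and 36.8 (ranks 826 and 1525) and 85.3 (rank 1047; IV, 1495987 to 1496310), 127 bp upstream. For npp-23, the Nup43 homolog, they were 31.6 and 22.6 (ranks 1540 and 2969) and 55.0 (rank 1972; IV, 8869670 to 8869993), 153 bp upstream. So npp-23 was outside the 2333 strongest calls of replicate 2. The other 5 Y complex genes each had a pooled call within 500 bp under the reproducible range, with signals of 44.7 at npp-10 (which encodes Nup98 and Nup96), 39.4 at npp-2, 35.1 at npp-18, 20.2 at npp-15 and 18.8 at npp-5.

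The remaining pore groups had 3 peaks in 14 genes. Of the central channel genes, npp-1, the Nup54 homolog, had 31.4 and 34.4 in replicates 1 and 2 (ranks 1558 and 1693) and 65.6 in the reproducible set (rank 1538; IV, 9858077 to 9858400), 249 bp upstream, while npp-4 and npp-11, homologs of Nup58 and Nup62, had no pooled call within 500 bp. On the cytoplasmic face, npp-14, the Nup214 homolog, had 57.7 and 66.5 (ranks 559 and 608) and 121 (rank 601; I, 9665044 to 9665367), 291 bp upstream. The Nup358 homolog npp-9, which binds Ran, had 27.5 and 32.1 (ranks 1903 and 1879) and 63.6 (rank 1615; III, 3404497 to 3404820), 180 bp upstream. These 3 peaks were ranked alike by both replicates. No peak was found at npp-24 and npp-26, homologs of Nup88 and GLE1, with pooled calls of 19.3 and 16.6. The membrane proteins npp-22, the NDC1 homolog, and npp-25, the TMEM33 homolog, had pooled calls of 35.7 and 41.0. The strongest replicate 2 call in reach of npp-25 (rank 2119) was at -253 bp, beside -254 bp for the pooled call. In replicate 1 the strongest call in reach (rank 3904) was at another site, 366 bp upstream of a different 5' end of npp-25. The replicate 1 call nearest to a 5' end of the gene, at -112 bp, ranked 5287. The basket protein gene npp-21, the Tpr homolog, had no pooled call in reach, npp-16, the Nup50 homolog, had a call of 40, and npp-27, which was not placed in a group, a call of 37.4.

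The choice of 500 bp left out npp-7, the Nup153 homolog of the nuclear face, whose reproducible summit of signal 128 (rank 537) was 504 bp upstream, and npp-12, the gp210 homolog in the membrane, with a summit of 107 (rank 742) at -636 bp. Just inside the limit were ran-1 at -471 bp and xpo-1 at -458 bp. For the other 18 members without a peak the nearest reproducible summit was farther than 1000 bp, and the median over all 20 was 11224.5 bp. In the pooled list, 36 of the 40 members had a call of any strength within 500 bp, beside 39.2% of all genes. Of the 20 members without a peak, 7 had a pooled call with a q-value under 0.05. The matching share of all genes was not computed, so this count cannot be judged against it. Of these 20 members, 16 had a pooled call of any strength within 500 bp. The matching share of all genes without a peak was not computed either, so the 16 cannot be judged against it. The strongest signals at the 16 genes were 16.3 to 44.7 with a median of 35.4. Their place between the pooled list's lowest value of 13.8 and the limit of 48.2 was fixed in advance. The reproducible set is the 2333 strongest pooled calls, so every other pooled call has a signal under that limit.

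At the median, peaks of transport factors lay farther from the gene than those of pore proteins. The ranges overlap widely, -471 to -101 bp for transport factors and -408 to -70 bp for pore proteins. Most transport factor peaks were shared with a divergent neighbour. The median distance was -299.5 bp for the 10 transport factors with a peak (quartiles -333 and -260.5 bp), -179 bp for the 10 pore proteins (quartiles -244 and -158 bp) and -180 bp for all 1721 genes with a peak (quartiles -282 and -94 bp). A distance over 250 bp was found at 8 of the 10 transport factors, 2 of the 10 pore proteins and 34.4% of the 1721 genes. Within 250 bp, 2 of 14 transport factors (imb-1 and ran-5) and 8 of 26 pore proteins had a peak, beside 5.65% of all genes, and at 1000 bp the counts were 10 and 12, beside 10.9%. The order of both classes therefore changed between 250 and 350 bp, at which 14.3% and 57.1% of transport factors had a peak, against 30.8% and 34.6% of pore proteins.

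**Figure D2:**
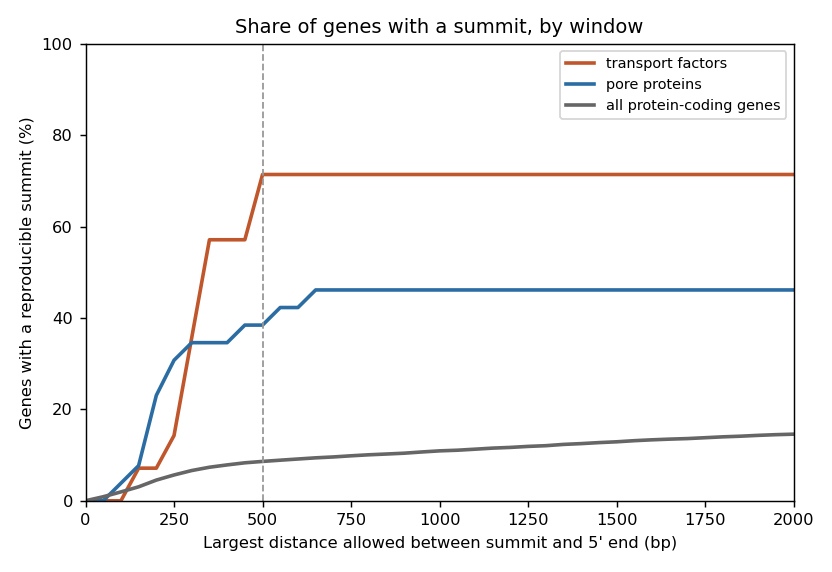
Share of genes with a reproducible summit (%) against the largest distance allowed between summit and 5' end (bp), for 14 transport factors, 26 pore proteins and all 19973 protein-coding genes, with the 500 bp window dashed. Transport factors are at 14.3% at 250 bp and stay at 71.4% from 500 bp on. Pore proteins are at 30.8% at 250 bp and 38.5% at 500 bp, and reach 46.2% at 650 bp. All genes are at 5.65% at 250 bp and 8.62% at 500 bp, and reach 14.6% at 2000 bp.

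A summit also within 500 bp of another gene's 5' end was found for 7 of the 10 transport factors and 4 of the 10 pore proteins with a peak, beside 47.3% of the 1721 genes. The other gene was the nearer one at all 7 of these transport factors, at 2 of the 4 pore proteins (npp-6 and npp-14), and at 23.5% of the 1721 genes, and such a peak cannot be assigned to either gene. For the transport factors the neighbours were mfsd-13.1 (48 bp from the imb-1 summit), R12C12.6 (1 bp, ran-5), C26D10.3 (69 bp, ran-3), dvc-1 (85 bp, ima-1), nol-14 (165 bp, xpo-2), dkc-1 (230 bp, ran-1) and uvs-1 (398 bp, xpo-1). Of these, dvc-1 encodes a homolog of the DNA-protein crosslink protease Spartan, and nol-14 and dkc-1 encode a nucleolar protein and dyskerin, which act in ribosome synthesis. For the pore proteins they were cel-1 (45 bp, npp-14), which encodes the mRNA capping enzyme, F59A2.5 (204 bp, npp-9), spd-5 (233 bp, npp-6), which encodes a centrosome scaffold protein, and top-2 (290 bp, npp-3), which encodes topoisomerase II. When each summit was given only to the gene with the nearest 5' end, 3 of 14 transport factors (ima-2, imb-2 and imb-3) and 8 of 26 pore proteins had a peak, beside 6.59% of all genes. The nearest upstream gene, at any distance, was divergent for 29 of 40 members and for 42.2% of all genes. Among genes with a divergent neighbour, 7 of 9 transport factors and 8 of 20 pore proteins had a peak, beside 13.7% of all 8420 such genes.

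**Figure D3:**
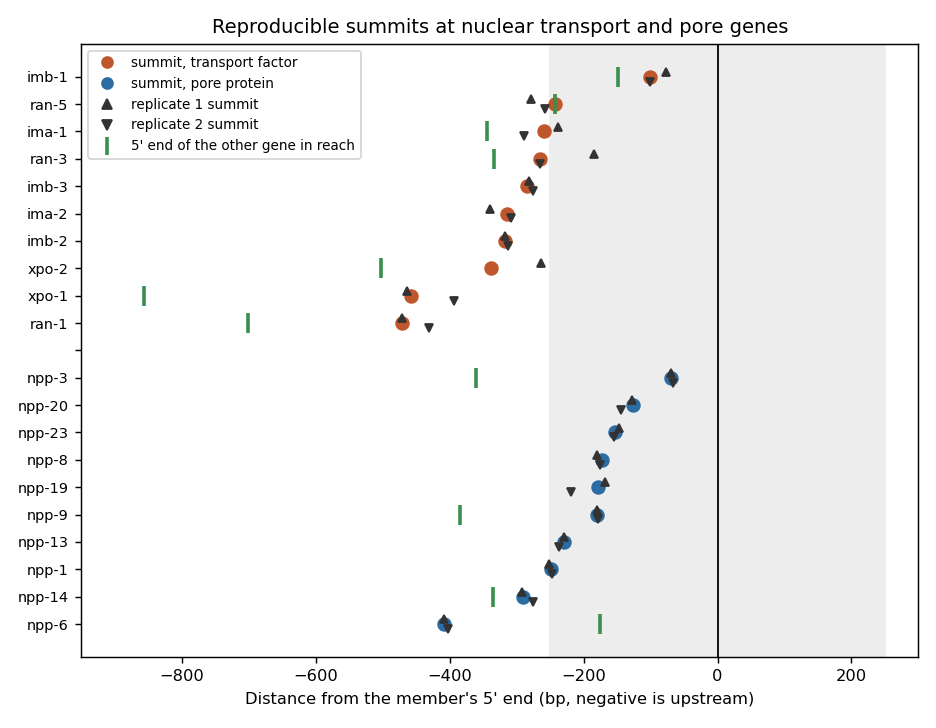
Distance of the reproducible summit from the member's 5' end (bp, negative is upstream) for the 10 transport factors, above, and 10 pore proteins, below, with the matching summits of replicates 1 and 2 as triangles, the 5' end of another gene in reach as a green bar and the span within 250 bp shaded. Of the transport factors 2 lie in the shaded span, and of the pore proteins 8 do.

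Pairs of members lie next to each other on the same strand at 2 places. The gene ran-2 starts 480 bp past the end of npp-15, and neither had a peak, with pooled calls of 16.3 and 20.2. The gene imb-3 starts 3560 bp past the end of xpo-2, and each had a peak within 500 bp, with signals of 255 at imb-3 and 51.4 at xpo-2, whose summit is nearer to nol-14. C. elegans genes can be transcribed together in operons, and the annotation used here does not mark them. Members with an upstream gene on the same strand within 1000 bp had a peak in 4 of 9 cases (ima-2, imb-2, npp-1 and npp-23), beside 5.62% of all 5550 such genes.

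The member peaks were of ordinary strength among promoter peaks. Their median signal was 91.2, against 85.1 for all 1346 reproducible peaks within 500 bp of a 5' end, and their median percentile was 46.3, where 0 is the strongest. For transport factors alone the median signal was 75.7 (percentile 59.2), and for pore proteins 103 (percentile 39.7), with ranges of 51.4 to 255 and 55.0 to 270 that overlap almost wholly. With the 1166 peaks of highest signal, 4 of 14 transport factors and 7 of 26 pore proteins had a peak, beside 4.94% of all genes.

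Both replicates held a call within 100 bp of the summit for 19 of the 20 member peaks, against 95.8% of all 1346 promoter peaks, the exception being xpo-2. The reproducible set was derived from these lists, so this is a description of its members and not independent support. In replicate 1, 19 of the 20 member peaks were among the 2333 strongest calls, without ran-1, and in replicate 2, 18 were, without npp-23 and xpo-2, beside 83.5% and 86.6% of all 1346 promoter peaks. The ranks of the replicates were within 2 times of each other for 17 of the 19 peaks called in both, beside 73.9% of 1290 promoter peaks called in both. The exceptions were ran-1 and ran-5, both with the better rank in replicate 2. With the 2333 strongest calls of replicate 2 alone, 9 of 14 transport factors and 10 of 26 pore proteins had a peak (8.43% of all genes), losing xpo-2 and npp-23 and gaining npp-25. With those of replicate 1 alone, 10 of 14 and 11 of 26 had one (8.34% of all genes), losing ran-1 and gaining ima-3 and npp-7.

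**Figure D4:**
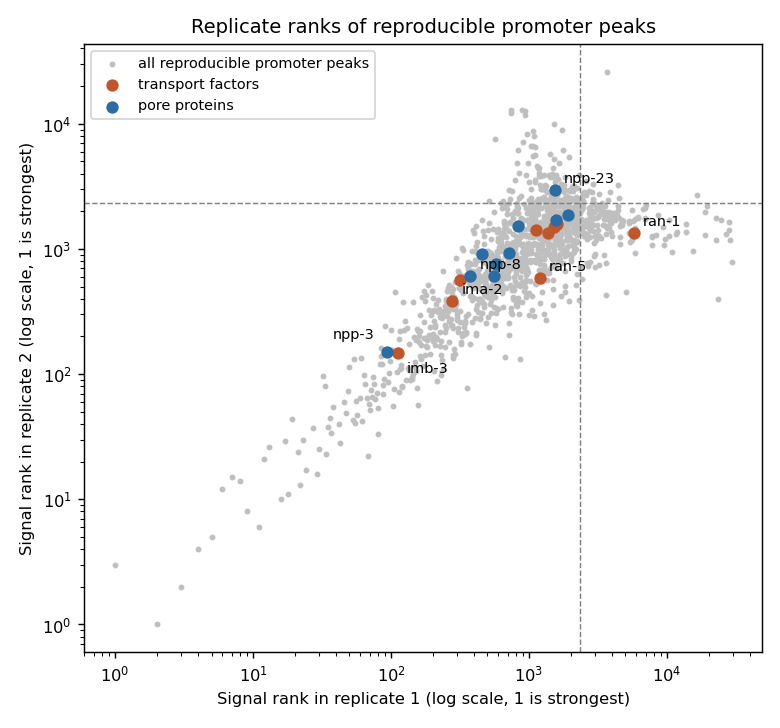
Signal rank in replicate 1 against replicate 2 (log scales, 1 is strongest) for reproducible promoter peaks with a call in both replicates, with 9 transport factors and 10 pore proteins in colour and rank 2333 dashed. The members spread along the body of the grey points, with npp-3 and imb-3 strongest and ran-1 and npp-23 beyond the dashed lines.

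The words looked for in the sequence were the CHR, a cell cycle promoter element to which the DREAM subunit LIN-54 binds, and E2F-like sites, which are bound by E2F and DP proteins. E2F-like words were TTCCCGCC, TTTCCCGC, TTCGCGCC, TTGGCGCC and TTCCCGCG, searched on both strands, and a base can belong to several matches. In windows reaching 100 bp to either side of the summit, a CHR was present at 17 of the 20 member peaks (85.0%, 95% exact interval 62.1 to 96.8), against 51.7% of all 1346 promoter peaks. It was found at 7 of 10 transport factors and 10 of 10 pore proteins, and was missing at ima-1, xpo-1 and ran-5. The CHR is a short word, and 56.2% of all genes have it in a window of the same length before their first 5' end. In that window it was present at 17 of the 20 members with a peak and at 14 of the 20 members without one.

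An E2F-like word was present at 6 of the 20 member peaks (30.0%, interval 11.9 to 54.3), against 7.73% of all promoter peaks and 2.30% of the windows before all genes. In those windows before the gene, the word was present at 2 of the 20 members with a peak and at 1 of the 20 without. The 6 summits with the word were those of ima-1, ima-2 and imb-3 among transport factors and npp-9, npp-19 and npp-23 among pore proteins. The ima-2 window held 4 matches, of which 2 overlap, the ima-1 window 2 that overlap, as the sequence above shows, and the others 1 each. A CHR and an E2F-like word occurred together at 5 member peaks (25%), against 5.65% of all promoter peaks. At imb-3 the centres of the E2F-like word and the CHR were at -12 and -4 bp from the summit in genome coordinates. A GC-box was found only at npp-8 of the member peaks, at -13 bp, against 9.66% of all promoter peaks and 6.01% of the windows before all genes, and a run of 8 T (T-tract) at imb-1 and xpo-1, against 16.7% and 26.4%. The windows had a median GC content of 40.5%, against 40.8% for all promoter peaks. A match describes the letters of the window and does not show that a protein binds there.

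**Figure D5:**
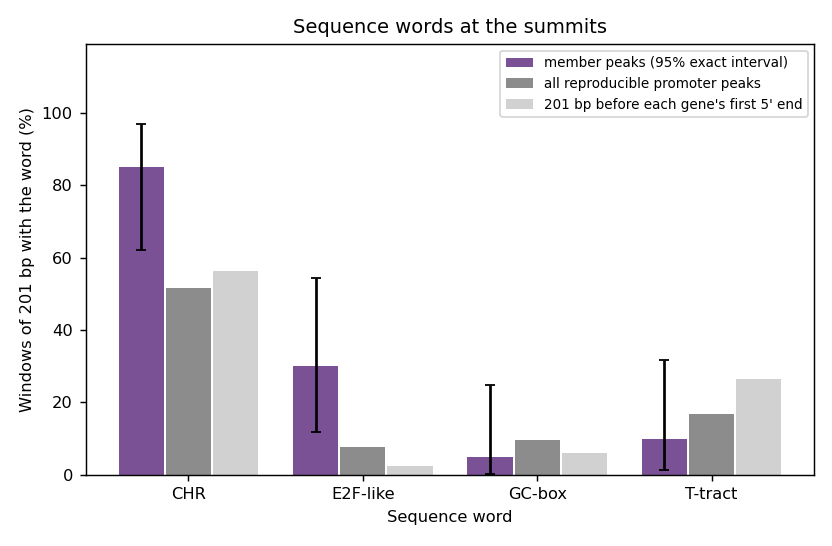
Share of windows (%) that hold each word, for windows at the 20 member peaks with 95% exact intervals, all 1346 reproducible promoter peaks, and windows of the same length before the first 5' end of all 19973 genes. The member bar is above the others for the CHR (85.0%) and the E2F-like words (30.0%), and below the bar of all promoter peaks for the GC-box (5%) and the T-tract (10%).

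Other genes of RNA export, the lamina, the nuclear envelope and SUMO conjugation were taken from a list of 42 names, 40 of which matched a protein-coding gene, without eny-2 and phax-1. Of the 40, 14 had a peak (35.0%), beside the same 8.62% of all genes. The strongest were at hel-1, an RNA helicase of mRNA export (signal 186), ubc-9, the SUMO-conjugating enzyme (185), chmp-7, an envelope repair factor (136), and thoc-5, a subunit of the mRNA export complex THO (103). The inner membrane protein emerin, encoded by emr-1, had a peak of 57.4 at -339 bp. Lamin, encoded by lmn-1, and mel-28, the ELYS homolog that starts pore assembly on chromatin, had none, with the nearest reproducible summit 14942 and 28908 bp away. A pair of genes outside the naming rule also belong to the transport machinery. The pore-associated mRNA export factor rae-1 had a peak of 113 at -125 bp (rank 672), and the gene that RefSeq names xpo-7, an exportin listed as C35A5.8 in the annotation used here, had a peak of 66.4 at -135 bp (rank 1514). Both were looked up after the members' values were seen.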

How the data were processed

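Peak lists in the ce11 build were analysed, 1 list for each of 2 biological replicates of tagged LIN-13 in L1 larvae, 1 for the pooled alignments and the optimal IDR set derived from these, per the deposited descriptions of the files. Each deposited call carries a signal, which is the caller's score against a control, a −log10 q-value, from which calls with q under 0.05 were counted, and the offset of its summit in bp. Which aligner and caller were used, with which IDR limit and at what depth, the sources used here do not state. Lists in the ce10 build were not used here. Replicates were compared through their own lists and not averaged, and intervals describe counting error only.

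Names of genes and the 5' ends of their transcripts were taken from Ensembl 115 (29304 distinct 5' ends of protein-coding transcripts on 6 chromosomes), and sequence and the name xpo-7 came from RefSeq on the same assembly. Signals were ranked within each list, calls of the replicates were matched within 100 bp of a summit, and shares carry 95% exact binomial intervals (Python 3.11.15, scipy 1.17.1). The distance search was tested on simulated data, and the word search on a short made-up sequence with known words. The members and lists were chosen with earlier results of these data known. The text names every member, genes whose 5' end lies within 500 bp of a member's summit, and of the other list the 4 strongest peaks with mel-28, lmn-1 and emr-1. Alternatives were windows of 250 and 1000 bp, the first 5' end only, the nearest 5' end only, the 1166 strongest peaks, any pooled call, each replicate alone, interval overlap, match distances of 50 and 200 bp, and sequence windows of 101 and 301 bp. The RefSeq name xpo-7 was added after seeing the data.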

Additional observations from a re-analysis of the deposited data

How the results depend on the processing

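The share of members with a peak, 50%, was 25% within 250 bp, 27.5% with the nearest 5' end only, 27.5% with the 1166 strongest peaks and 90.0% with any pooled call. For transport factors, 71.4%, the values under these 4 alternatives were 14.3%, 21.4%, 28.6% and 100%, and for pore proteins, 38.5%, any pooled call gave 84.6%. The difference of transport factors minus pore proteins, 33.0 percentage points, turned to -16.5 points within 250 bp and to -9.34 points with the nearest 5' end only, because 8 and 7 transport factors then lost their peak. It was 1.65 points with the 1166 strongest peaks. Leaving out a replicate gave shares of 47.5 to 52.5% for all members, 64.3 to 71.4% for transport factors and 38.5 to 42.3% for pore proteins, and a difference of 25.8 to 29.1 points. A call in both replicates was found for 95% of member peaks within 100 bp and for 100% within 200 bp. The CHR share, 85.0% within 100 bp of the summit, was 60.0% within 50 bp (28.5% of all promoter peaks) and 85.0% within 150 bp (67.4% of all promoter peaks, inside the members' interval of 62.1 to 96.8). Of 54 recomputed values, 41 stayed within the interval of the value reported, among them the 1.65 points and the shares and differences without a replicate. Another 11 fell outside it, and 2, both differences, fell outside it and turned negative. The intervals are wide, 0.70 to 56.2 points for the difference, so a value inside one can still be far from the value reported. With xpo-7 added, 51.2% of members and 73.3% of transport factors had a peak, and the difference was 34.9 points. The pore-associated gene rae-1, which also had a peak, was not added to the pore proteins in this alternative. No paired analysis was possible because the samples form 1 group and no result comes from a test. Without the depth of the libraries, a missing peak cannot be read as missing binding.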
